A study of Mus musculus with 2 samples.

Results

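Claudins are the membrane proteins that set the barrier of epithelial tight junctions, and 10 claudin genes were compared between wild type and Etv4;5 knockout embryonic mouse lung. The members were Cldn1, Cldn3, Cldn4, Cldn6, Cldn7, Cldn10, Cldn11, Cldn12, Cldn15 and Cldn18, taken by gene symbol, and each was read by its probe set of highest mean among those annotated with 1 gene symbol. All 10 were found among the 19938 genes of the array table, and all 10 were among the 11045 genes that counted as measured, which means that the brighter of the 2 values reached the median of its own array. The table held 18 further claudin genes, which were not members.

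The lungs were taken at E13.5, an embryonic stage when the airway tree is still branching. One group is labelled wild type and also control. The other is labelled as a knockout of Etv4 and Etv5, related ETS family factors that act downstream of fibroblast growth factor signalling in the distal lung epithelium, with its title abbreviated CKO and its description DKO. Neither a Cre line, nor the deleted parts, nor strain or sex is given in the sources used here, so the cells that carried the deletion are not known. RNA of 3 samples per group was pooled in equal amounts and hybridised to 1 Affymetrix array per group. There were thus 2 arrays without replicates, so differences between samples could not be tested, and each value below describes these 2 pools.

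The deposited values ran from 2.69 to 14.45 and were read as log2 from that range, with array medians of 7.60 and 7.58. Etv4 stood at 7.59 in wild type and 6.96 in knockout, and the brighter Etv5 probe set at 11.51 and 11.28. The pools differed in sex makeup as read from Xist (12.34 and 5.74) and from Uty, Eif2s3y and Kdm5d, which were higher in the knockout pool by 0.53 to 0.64. All 8 epithelium markers, among them Epcam, Cdh1 and Nkx2-1, and all 6 mesenchyme markers counted as measured, as did 11045 of the 19938 genes. Markers of both compartments were thus read in these samples labelled lung. In tissue of several cell types, fewer cells of a type and less RNA per cell cannot be told apart.

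A claudin crosses the membrane repeatedly and meets claudins of its own and the neighbouring cell through its extracellular loops, and the set of claudins that a cell makes decides which ions and solutes pass between cells. Some claudins mainly seal the junction and others form selective paracellular pores. Cldn3, Cldn4, Cldn7 and Cldn18 are well known from lung epithelium, where Cldn18 is a hallmark of the alveolar lining. For the comparison, Cldn1, Cldn3, Cldn4, Cldn6, Cldn7, Cldn10 and Cldn18 were classed as epithelial claudins (7 genes), being known from lung or airway epithelium. Cldn11, Cldn12 and Cldn15 were classed as other claudins (3 genes). The other class is not a class of non-epithelial claudins, as Cldn15 is known from the intestine.

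Promoter sequence is shown for the 3 epithelial claudins that differed most between the pools (Cldn10 and Cldn7 higher in knockout, Cldn18 lower), since Etv4 and Etv5 bind DNA through the ETS core GGAA. The 250 bases before the first RefSeq start of each gene are given 5′ to 3′ on the gene's strand (RefSeq, GRCm38.p6), in lower case with every match to GGAA or its reverse complement TTCC, and to the longer ETS form CCGGAAG or its reverse complement CTTCCGG, in capitals. Each CCGGAAG match holds a GGAA. The windows lie at chr14:118787621-118787870, plus strand, at chr11:69964529-69964778, plus strand, and at chr9:99717268-99717517, minus strand. The Cldn10 window overlaps the annotated gene Gm52105, and the other windows overlap no annotated gene.
Cldn10: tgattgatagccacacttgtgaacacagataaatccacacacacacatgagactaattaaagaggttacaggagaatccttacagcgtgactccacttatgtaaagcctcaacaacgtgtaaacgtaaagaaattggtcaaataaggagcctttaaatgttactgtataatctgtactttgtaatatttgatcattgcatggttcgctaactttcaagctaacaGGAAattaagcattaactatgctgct
Cldn7: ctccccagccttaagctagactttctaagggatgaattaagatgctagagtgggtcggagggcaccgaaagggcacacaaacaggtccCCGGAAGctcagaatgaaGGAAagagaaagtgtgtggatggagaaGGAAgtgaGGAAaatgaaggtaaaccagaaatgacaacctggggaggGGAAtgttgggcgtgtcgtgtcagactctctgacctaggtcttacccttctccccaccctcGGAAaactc
Cldn18: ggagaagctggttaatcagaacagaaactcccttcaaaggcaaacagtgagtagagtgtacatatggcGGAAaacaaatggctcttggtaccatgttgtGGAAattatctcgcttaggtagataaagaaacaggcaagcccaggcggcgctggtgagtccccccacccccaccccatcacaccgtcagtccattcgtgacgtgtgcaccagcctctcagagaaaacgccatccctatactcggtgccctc

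The GGAA core was found 1 time before the first start of Cldn10, 6 times before that of Cldn7 and 2 times before that of Cldn18. It was present in 14 of the 15 windows of the 10 members, Cldn3 having none, and in 93.4% of the 32851 windows of all genes. The longer form CCGGAAG was found in 6.90% of all windows and before the starts of 2 members, Cldn7 and Cldn12. Cldn7 held it before both of its RefSeq starts, and the windows of the 3 Cldn12 starts overlap and share a single match. The matches are shown with their flanks, at chr11:69964607-69964633, plus strand, at chr11:69965345-69965371, plus strand, and at chr5:5514981-5515007, minus strand. The match before the second Cldn7 start lies within the Cldn7 gene.
Cldn7, before the first start: aaacaggtccCCGGAAGctcagaatga
Cldn7, before the second start: ggggccaagaCTTCCGGttcaggtgag
Cldn12: gaggcgggacCCGGAAGaaggaggtgg

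These members differed in opposite directions, Cldn7 by 0.22 and Cldn12 by -0.14. The motif AACCNGTT, the form bound by grainyhead-like factors of epithelia, was searched on both strands, was found in 0 of the 15 member windows and stood in 1.80% of all windows. The start sites also differed in base composition. The first Cldn10 window was 36.0% G and C with 4 CpG dinucleotides, whereas the window of its second start was 72.4% G and C with 22. Cldn10 is known to have alternative first exons, and which of them its probe sets read was not examined.

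Most epithelial claudins were slightly higher in the knockout pool, and Cldn18 was lower. Differences are given on the log2 scale as knockout minus wild type. Of the 7 epithelial members 5 had the higher value in knockout, 1 the lower, and 1 did not differ between the arrays; their median was 0.05. Over all 11045 measured genes 25.7% were higher, 47% were lower and 27.3% had equal values, and the median was 0.00. With the array medians set equal, 60.7% of measured genes were higher and 39.3% lower, and no member changed sign, Cldn4 alone moving off 0. Of the 10 members 0 were higher and 0 were lower by the threshold used for calls, a log2 difference of 0.322, which 0.815% of measured genes passed upward and 0.797% downward. At the smaller threshold of 1.1-fold, 2 members were higher (Cldn10 and Cldn7) and 3 lower (Cldn18, Cldn11 and Cldn12), a size that 5.05% of measured genes reached upward and 7.5% downward. Values of different genes come from different probe sets and are not compared with each other as levels.

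**Figure D1:**
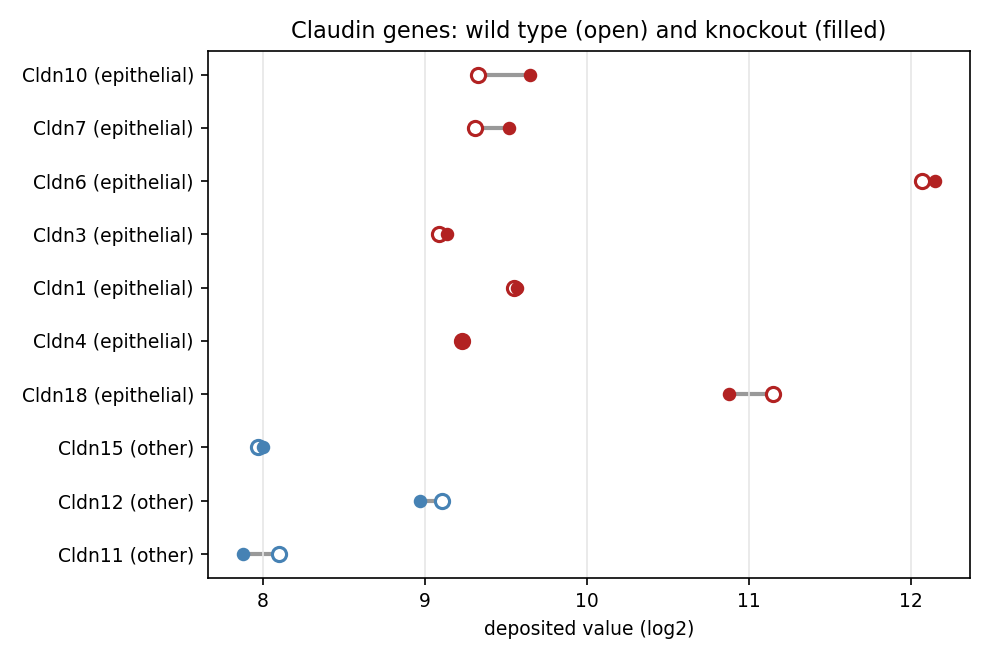
Deposited log2 values (horizontal axis) of the 10 claudin genes, 1 row per gene, with the wild type pool as an open circle, the knockout pool as a filled circle, epithelial claudins in red and other claudins in blue. Cldn10 moves from 9.33 to 9.65, Cldn18 from 11.15 to 10.88, and both circles of Cldn4 lie on each other at 9.23; positions of different genes are not comparable as levels.

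Cldn10 had the largest difference of the members. This claudin forms ion-selective paracellular pores, and it is a marker of club cells in the airways. It read 9.33 in the wild type pool and 9.65 in the knockout pool, a log2 difference of 0.316 that lay just under the threshold of 0.322. Its second probe set stood at 8.87 and 9.11, higher by 0.24, so both probe sets annotated to Cldn10 alone were higher in the knockout pool. A further probe set, annotated to Cldn10 and Dzip1 together and not used, was at 9.71 on both arrays. Of the 11045 measured genes 98 (0.89%) had a difference at least as high as that of Cldn10.

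Cldn7 followed. It is found along the lateral membrane as well as in the junction and binds the adhesion molecule EpCAM. Cldn7 read 9.31 in the wild type pool and 9.52 in the knockout pool, higher by 0.22, and 235 measured genes (2.13%) were at least as high. The gene of its partner, Epcam, stood at 10.38 and 10.47, a difference of 0.09. The median gap between the differences of 2 probe sets of 1 gene was 0.04 over 618 measured genes. Probe sets with equal values on both arrays were kept, and the 90th percentile of that gap was 0.18. The differences of Cldn10 and Cldn7 were larger than this 90th percentile, which says nothing of the spread between embryos.

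Cldn6, Cldn3, Cldn1 and Cldn4 had the smallest differences among the epithelial claudins. Cldn6, a claudin of embryonic epithelia, stood at 12.07 and 12.15, higher by 0.08. Cldn3 stood at 9.09 and 9.14, higher by 0.05. Cldn1, a barrier claudin best known from skin, stood at 9.55 and 9.57, higher by 0.02. Each of these 3 differences lay within the 90th percentile gap of 0.18 between probe sets of a gene. Cldn4, which tightens the barrier in many epithelia, had the same value of 9.23 on both arrays, as 27.3% of measured genes did. Equal values on both arrays were held by 10043 of the 35557 probe sets, and the sources used here give no reason. An equal value is therefore not read here as a measured lack of change.

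Cldn18 was the epithelial claudin with the lower value in the knockout pool. Mice make a lung and a stomach form of it from alternative first exons, and it belongs to the junctions of alveolar epithelial cells. Cldn18 read 11.15 in the wild type pool and 10.88 in the knockout pool, a log2 difference of -0.27. Of the measured genes 163 (1.48%) had a difference at least as low. The size of the Cldn18 difference was above the 90th percentile gap of 0.18 between probe sets of a gene. Which form its single probe set reads was not examined.

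**Figure D2:**
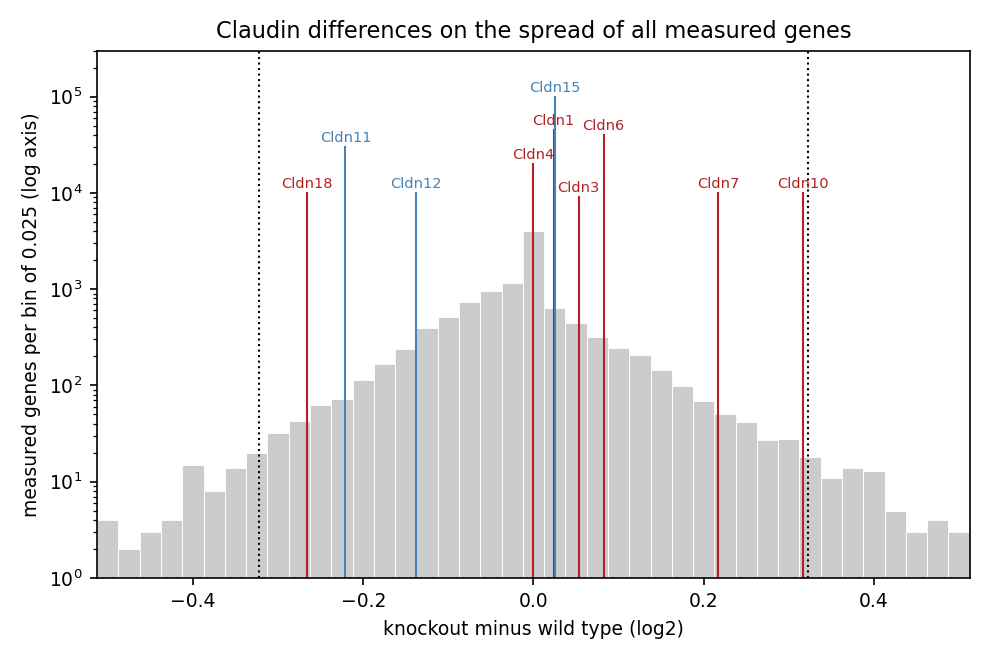
Number of measured genes (vertical log axis) in bins of 0.025 of the log2 difference, knockout minus wild type (horizontal axis), with a line for each claudin, epithelial in red and other in blue, and dotted lines at the call threshold of 0.322 in each direction; 56 genes beyond the plotted range are not drawn. Cldn10 (0.32) lies just inside the upper dotted line, Cldn18 (-0.27), Cldn11 (-0.22) and Cldn12 (-0.14) on the lower side, and Cldn4 at 0.

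Of the other claudins 2 were lower in the knockout pool and 1 was higher. Cldn11, which seals the myelin of oligodendrocytes and the barrier of Sertoli cells, read 8.10 in the wild type pool and 7.88 in the knockout pool, a log2 difference of -0.22, and 278 measured genes (2.52%) were at least as low. Cldn12, a broadly expressed claudin, stood at 9.11 and 8.97, a difference of -0.14, which only just reached 1.1-fold. Cldn15, a sodium pore of the intestine, stood at 7.97 and 8.00, higher by 0.03. In size the difference of Cldn11 lay above the 90th percentile gap of 0.18 between probe sets of a gene. Those of Cldn12 and Cldn15 lay within it.

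The median of the other claudins was -0.14 and that of the epithelial claudins 0.05, a difference of medians of 0.19. In size both medians lay within the 90th percentile gap of 0.18 between probe sets of a gene. The classes overlapped: epithelial claudins ran from -0.27 to 0.32 and other claudins from -0.22 to 0.03, so the lowest member of all was the epithelial Cldn18. With 3 genes in the smaller class and 1 array per group, the contrast is a description of these genes.

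Markers of the tissue compartments differed between the pools as well. Of the 8 epithelium markers 7 were higher and 1 lower (median 0.11), and their summed level, the log2 of the sum of unlogged values, was 13.34 in wild type and 13.49 in knockout. All 6 mesenchyme markers (median -0.10) and all 5 smooth muscle markers (median -0.26) were lower, with summed levels of 14.77 and 14.62, and of 13.74 and 13.61. Over all measured genes 25.7% were higher and 47% lower. Under equal medians these marker counts did not change, where 60.7% of all measured genes were higher and 39.3% lower. The part of these compartments in the claudin differences was not tested. Set against the epithelium markers on the same arrays, a comparison chosen after the values were known, 5 of the 7 epithelial claudins lay below the marker median of 0.11. Only Cldn10 and Cldn7 lay above it, by 0.21 and 0.11. Against Epcam alone these lay above by 0.23 and 0.13, but against Cdh1 alone by 0.13 and 0.03. The markers Krt18 (0.47) and Krt8 (0.33) had larger differences than both claudins, and the remaining markers lay below both. Cldn18 had the most negative value relative to the markers, -0.38 against their median and -0.36 against Epcam alone. The single lower epithelium marker was Sox9, a factor of the distal tips, at 10.84 and 10.53 (-0.32).

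Markers of the remaining compartments were read beside the other claudins, and beside the 25.7% of all measured genes higher and 47% lower as deposited. Endothelium markers had no settled direction: 4 of 5 were lower as deposited, 0 of them by 1.1-fold, but 2 were lower and 3 higher under equal medians (median -0.02 as deposited, summed level 13.31 and 13.28). The erythroid list had 4 matched genes with a summed level of 12.24 and 12.03, and its 3 measured members were lower as deposited (median -0.25). Under quantile scaling 2 of these were lower and 1 higher. Epb42, also on that list, lay below the level filter and was higher by 0.17. The 4 measured leukocyte markers were lower (median -0.13, summed level of 5 matched genes 10.98 and 10.86), with Ptprc below the level filter. Of 5 measured mesothelium markers 3 were higher and 1 lower (median 0.06, summed level of 6 matched genes 11.58 and 11.68), with Msln below the filter. The higher markers were Krt19 (0.45), Bnc1 (0.20) and Lrrn4 (0.06), and Upk3b was lower (-0.09). The part of these compartments in the values of Cldn11, Cldn12 and Cldn15 was not tested.

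Among the 18 claudin genes that were not members, Cldn5 alone counted as measured. Cldn5, the claudin of endothelium, stood at 10.72 and 10.70, a difference of -0.01 that turned to 0.0049, 0.0081 and 0.0145 under equal medians, loess and quantile scaling. The other 17 lay below the level filter, and 9 of them were higher, 0 were lower and 8 had equal values, with the highest difference, 0.25, in Cldn34b2. Of all 8893 genes below the filter 42.9% were higher, 16% were lower and 41.1% had equal values, so dim claudins leaned upward on arrays where dim genes leaned upward in general. Several claudins lie beside each other in the genome, and such neighbours in the order of protein-coding genes were read separately. Cldn9, next to Cldn6, stood at 7.16 and 7.35 (0.19), Cldn16, next to Cldn1, at 6.02 and 6.09 (0.07), and Cldn3 lies next to Cldn4. Cldn1 is on chromosome 16 with Etv5, with 23 protein-coding genes between them in RefSeq order. Cldn7 is on chromosome 11 with Etv4, with 642 between them.

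Proteins that work with claudins were compared as lists. Counts of higher and lower genes in lists with medians near 0 move with the scaling: under equal medians, 7 of 9 tight junction membrane genes, 8 of 11 plaque genes, 4 of 6 polarity genes and 6 of 10 transcription factor genes were higher. Under that scaling 60.7% of all measured genes were higher as well. Partners that bind claudins, and membrane proteases and inhibitors of the matriptase system, which controls the turnover of EpCAM and claudin-7, were higher in 6 of 7 measured genes, with a median of 0.15 and 4 at 1.1-fold or more, beside 25.7% of all measured genes higher and 5.05% higher by that fold. Under 3 other scalings 6 or 7 of the 7 were higher, where equal medians left 60.7% of all measured genes higher. The protease inhibitor gene Spint1 stood at 9.49 and 9.75 (0.26). St14, which encodes matriptase, stood at 9.76 and 9.98 (0.22). The tetraspanin gene Cd9 was higher by 0.18 and the protease gene Prss8 by 0.15. The list holds Epcam, which is also an epithelium marker, and the epithelium markers had a median of 0.11.

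Other transmembrane proteins of the tight junction moved in both directions. Of 9 measured genes 5 were higher, 3 lower and 1 equal, with a median of 0.01, and 2 were at least 1.1-fold higher and 2 lower. Over all measured genes 25.7% were higher, 47% lower and 27.3% equal, and 5.05% were higher and 7.5% lower by 1.1-fold. The same shares stand beside the plaque, polarity and transcription factor counts below. Ocln, which encodes occludin, stood at 8.43 and 8.62 (0.18). The junctional adhesion molecule genes Jam2 and Jam3, which endothelial and mesenchymal cells also make, stood at 8.98 and 8.72 (-0.26) and at 8.39 and 8.22 (-0.16). F11r, of the same family, differed by 0.01. The part of cell types in these values was not tested. Ildr2, a relative of the tricellular junction proteins, stood at 7.11 and 7.89, a difference of 0.78 that rests on a wild type value below the array median.

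**Figure D3:**
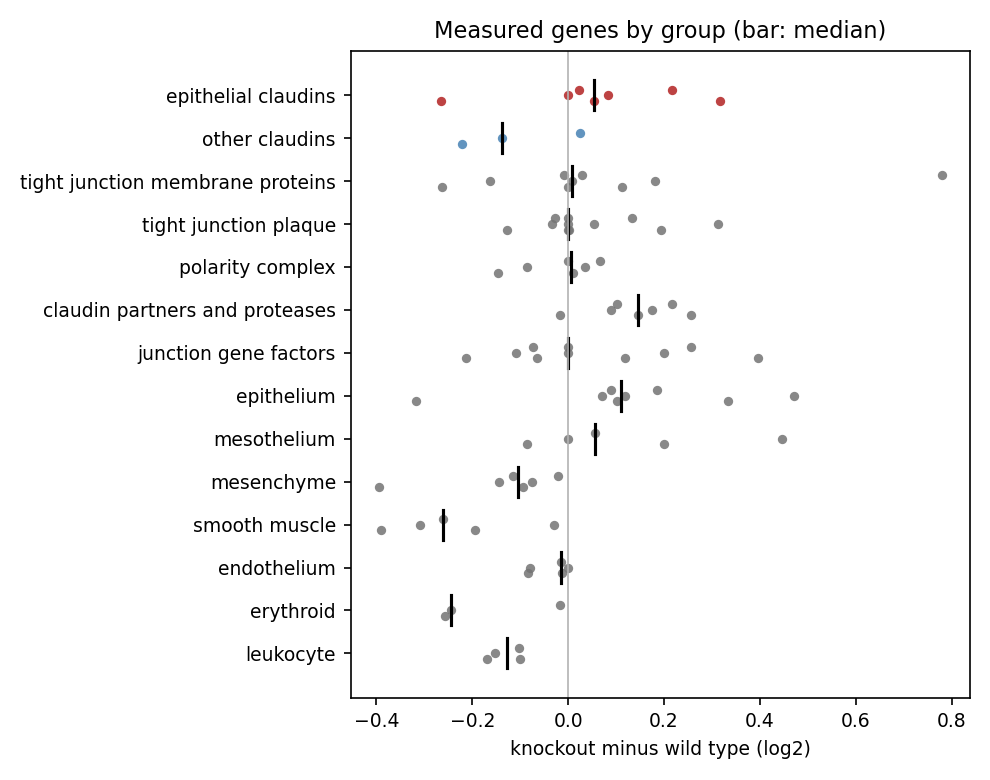
Log2 difference, knockout minus wild type (horizontal axis), of each measured gene in the claudin classes (red and blue), the junction lists and the marker lists (grey), 1 point per gene with a black bar at the median. The epithelial claudins (median 0.05) spread to both sides of 0, claudin partners and proteases (0.15) and epithelium markers (0.11) lie mostly above 0, and smooth muscle markers (-0.26) lie below it.

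Of 11 measured genes of plaque proteins, some of which link claudins to the cytoskeleton, 5 were higher, 3 lower and 3 equal (median 0.00). Cgn, which encodes cingulin, stood at 8.02 and 8.33 (0.31), and Tjp3, one of the zonula occludens scaffolds, at 7.94 and 8.13 (0.19), while the more widely expressed scaffold Tjp1 differed by -0.03. Patj was higher by 0.13 and the related Mpdz differed by -0.13. Polarity genes differed little: of 6 measured, 3 were higher, 2 lower and 1 equal (median 0.01), the largest size being that of Lin7c (-0.15).

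Transcription factors known to act on epithelial junction genes also lay on both sides, with 4 higher, 4 lower and 2 equal among 10 measured (median 0.00). Klf5, an epithelial factor, stood at 9.38 and 9.78 (0.40). The ETS factor gene Elf3 stood at 7.50 and 7.75 (0.26), with a wild type value below the array median, so that it counted as measured through the knockout array. Grhl3 stood at 7.62 and 7.82 (0.20), while Grhl2, which drives Cldn4 in other epithelia, was at 8.94 on both arrays. Nkx2-1, the lung factor known to activate the lung form of Cldn18, was higher by 0.12, and Cldn18 differed by -0.27. A link between these values was not tested. The repressor gene Zeb2, made mainly outside epithelia, stood at 11.50 and 11.28 (-0.21), and Snai2 differed by -0.11.

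The differences of the members moved little with the processing, but not every setting could move them. The floor changed no member value, and the mean over probe sets could change Cldn10 alone. Equal medians shifted every gene by the same 0.0174. Cldn10 ran from 0.28 to 0.34 over 6 settings of scaling, probe set choice and floor, and passed the call threshold of 0.322 under each of 3 other scalings. Cldn7 ran from 0.22 to 0.24, Cldn18 from -0.27 to -0.24 and Cldn11 from -0.22 to -0.20. Cldn12 ran from -0.14 to -0.11 and fell short of 1.1-fold under the other scalings. Cldn4 ran from 0.00 to 0.02, so its equality holds for the values as deposited.

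**Figure D4:**
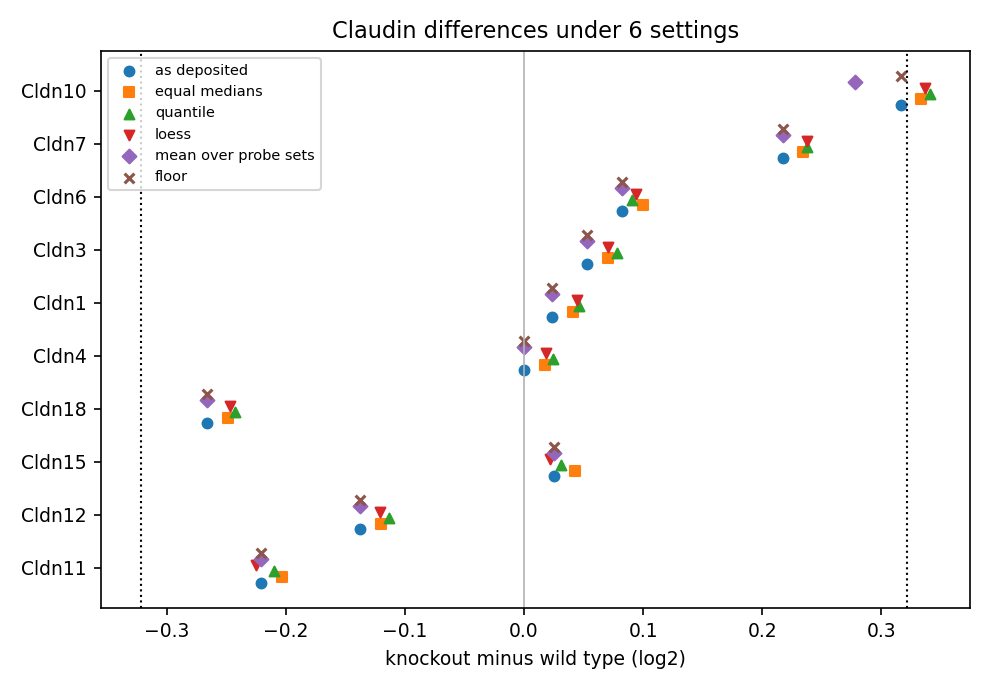
Log2 difference, knockout minus wild type (horizontal axis), of the 10 claudin genes, 1 row per gene, with 1 marker for each of 6 settings and dotted lines at the call threshold of 0.322. Cldn10 runs from 0.28 to 0.34 and crosses the dotted line under equal medians, quantile and loess scaling, while Cldn18 stays between -0.27 and -0.24.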

How the data were processed

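The authors' deposited table holds 1 value per probe set for each of 2 arrays, taken here as log2 expression from its range; the log base, summary method and normalization are not given in the sources used here. Column kit RNA was labelled with biotin for Affymetrix arrays, per the labels' protocols, and 3 samples per group were pooled, per the series' design text. Of 35557 probe sets, 21789 had 1 gene symbol in the platform annotation, 1621 several and 12147 none. Each gene was read by its probe set of highest mean; genes whose brighter value reached the median of its array counted as measured. No test was run and no SD computed, with 1 array per group, and the number of arrays limits the precision. Genes were counted at a log2 difference of 0.322, with folds of 1.1, 1.5 and 2 as alternatives, beside 3 other scalings, the mean over probe sets, filters at none and the 75th percentile, and a floor at the 25th percentile. Counting was tested on simulated data. The members and lists were chosen with earlier results of these data known. Named were all members, claudins beside them or measured, the pool checks, and up to 4 measured genes of largest size per list. F11r, Tjp1, Grhl2, Nkx2-1, Snai2, Epcam, Sox9, Epb42 and Cldn34b2 were named in addition after their values were seen. Some listed genes are not reported here. Promoters came from RefSeq (GRCm38.p6), and gene order from the same assembly. Python 3.11.15, numpy 2.4.6, pandas 2.3.3, statsmodels 0.14.6 and matplotlib 3.10.9 were used.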

Additional observations from a re-analysis of the deposited data

How the results depend on the processing

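Leaving out an array was not possible. The scalings of the gene lists and of Cldn5 were added after seeing the data. No paired analysis was possible because each group has 1 array of pooled RNA. The count of members higher by a log2 difference of 0.322 or more, 0 as deposited, was 1 (Cldn10) under equal medians, quantile and loess scaling, and 2 at a threshold of 1.1-fold. The count lower by as much, 0 as deposited, was 3 at 1.1-fold and 0 under every other setting run. As deposited, 0.815% of measured genes passed 0.322 upward, and 5.05% passed 1.1-fold upward and 7.5% downward. The share past 0.322 under the other scalings is not given here, and equal medians raised the difference of every gene by 0.0174. The epithelial median ran from 0.05 to 0.08 and that of the other claudins from -0.14 to -0.11, and their difference stayed at 0.19. Only loess and quantile scaling bore on that difference. An equal shift of all genes cancels in it, and the floor and no filter changed no member. The mean over probe sets changed only Cldn10, which is not a median gene. The filter at the 75th percentile kept 5 members, all epithelial, so it gave no contrast. Under equal medians the median over measured genes was 0.0174, and the scaling turned the shares of higher and lower genes from 25.7% and 47.0% to 60.7% and 39.3%. None of the 10 members changed sign under these settings, and Cldn4 moved from 0.00 to at most 0.02. The differences of Cldn1 and Cldn15, 0.02 and 0.03, were close in size to that scaling shift. Signal near the array median limits Cldn11 and Cldn15, which the stricter filter left out with Cldn3, Cldn4 and Cldn12.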
